A study of Rattus norvegicus with 23 samples.

Results

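The livers of rats gavaged with corn oil were compared with those of rats gavaged with water, with no test compound in either group. These 5 samples, of 23 in the series, were chosen by their titles: 3 rats had corn oil at 2 ml/kg, 2 rats had water at 10 ml/kg, and all 5 belonged to the in-life study ITP16-041. They were male Sprague Dawley rats, an outbred stock, stated by the study's methods to be typically 6 to 8 weeks old. Dosing ran daily for 5 days, and the left lateral liver lobe was taken 24 h after the last dose from animals fasted overnight. The vehicle and the gavage volume differed together, so the oil and the smaller volume cannot be told apart. Each title carried its own animal number, so a sample was counted as 1 rat. Beside them stand other rats of the same study that had a compound in the same vehicles. These were 3 rats given acetaminophen (APAP) at 1000 mg/kg in corn oil and 3 rats given diclofenac (DCLF) at 10 mg/kg in water. A further 3 rats had corn oil alone at 5 ml/kg, but in another study. Study and volume cannot be told apart there and only levels are given. For 1 count, groups of 3 rats from other studies were also used. They had 35% ethanol at 2 ml/kg, alpha-naphthylisothiocyanate (ANIT) at 100 mg/kg or methylenedianiline (MDA) at 100 mg/kg. By the study's methods ANIT was given in corn oil and MDA in 35% ethanol. The ANIT rats belonged to the study of the corn oil rats at 5 ml/kg.

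Corn oil is a triglyceride rich in linoleic acid. After absorption its fatty acids reach the liver, where they can be burned in mitochondria and peroxisomes, stored in droplets or exported in lipoproteins. Fatty acids are known to activate PPAR alpha, the nuclear receptor that switches on fat oxidation, and polyunsaturated ones are known to restrain SREBP-1c, the factor that drives fatty acid synthesis and desaturation. A liver sampled after an overnight fast is already one in which fat oxidation genes are active and fat synthesis genes are low.

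RNA was measured on a 1-colour Affymetrix rat genome array whose values the authors had deposited as log2 RMA values. On this scale a difference of 1 is a factor of 2. The 5 arrays had medians of 8.97 to 9.02, and Pearson's r between pairs of them, across probe sets, ran from 0.992 to 0.996. The closest pair was a rat given water and a rat given corn oil (water replicate 1 with corn oil replicate 1), and the least close pair was corn oil replicates 2 and 3. The mean level of the hepatocyte marker list was 14.62 to 14.66 in the water samples and 14.61 to 14.67 in the corn oil samples, as fits the label of liver.

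No gene met the call for a difference between corn oil and water, which was an adjusted p under 0.05 by limma and a fold over 1.5. That was 0 of 31042 probe sets (0%) in both directions, and the smallest adjusted p was 0.508. Of all probe sets, 2107 (6.79%) had an unadjusted p under 0.05, of which 654 (2.11%) were higher and 1453 (4.68%) lower in corn oil. That split of 69% lower was 51% when each array was centred on its median and 50.8% after quantile normalization. The excess of lower values thus moved with the scaling, and it moved with the water rats too. Over all probe sets 58.3% were below 0, with a median difference of -0.0241. Without water replicate 2 these were 50.9% and -0.00243, and without water replicate 1 they were 61.9% and -0.0455. A fold over 1.5 in either direction was seen for 117 probe sets (0.377%) and a fold over 2 for 22 (0.0709%).

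The precision of the comparison is part of the result. The 95% interval of the difference lay within 2-fold either way for 30736 of the 31042 probe sets (99%) and within 1.5-fold for 28891 (93.1%). The interval reached a median of 0.22 on the log2 scale to either side of the difference, a factor of 1.16. With 3 rats against 2, an exact permutation test of a single gene, two-sided, cannot go below p = 0.1.

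**Figure D1:**
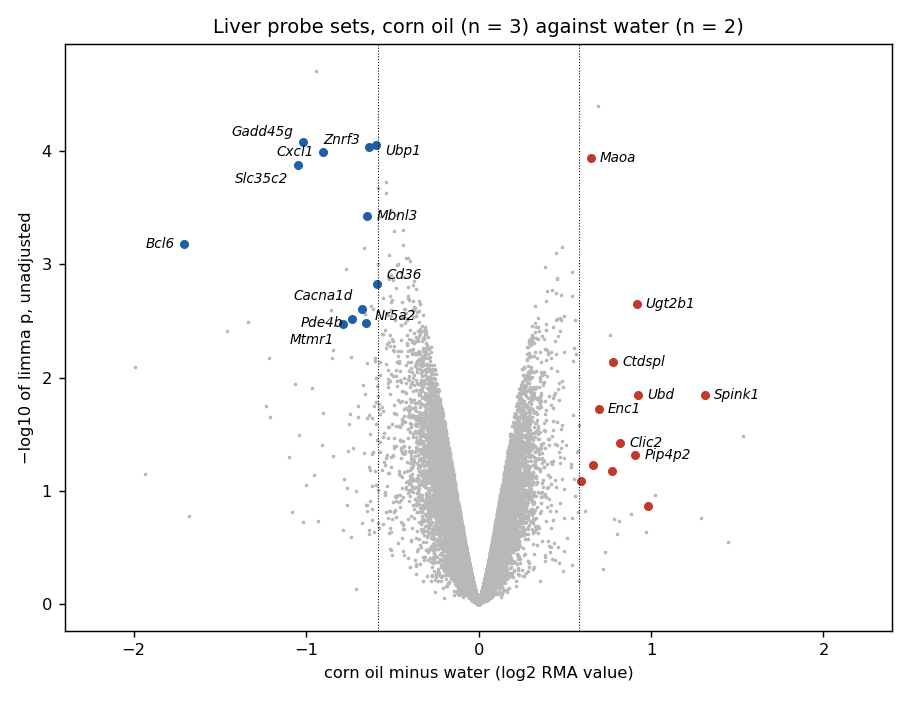
Difference between corn oil and water (x axis, log2) against the −log10 of the unadjusted limma p (y axis) for 31042 probe sets, with dotted lines at a fold of 1.5. Coloured points are the 12 higher (red) and 12 lower (blue) genes of smallest p past that fold, among probe sets naming 1 gene. Most of them are labelled, none of them met the call, and the smallest adjusted p was 0.508.

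The genes of smallest p among those past a fold of 1.5 are given next, 12 in each direction, as values and not as changes: their adjusted p ran from 0.508 to 0.755 by limma. The contrast itself chose them, so nothing is read from the size or the direction of their differences. In this contrast the values of corn oil and water did not overlap for 24.5% of all probe sets.

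Among the ranked genes lower in corn oil, the largest difference was that of Bcl6. This transcriptional repressor is higher in males in rodent liver and holds down fat oxidation genes. It read 11.29 and 11.24 in the water samples and 10.18, 9.26 and 9.21 in the corn oil samples, a difference of -1.71 ± 0.28 (SE) and a 95% interval of -2.39 to -1.03. Both water values stood above all corn oil values, and corn oil replicate 1 lay between. Without that sample the difference was -2.02 with an adjusted p of 0.0236 by limma, so Bcl6 then met the call, the one probe set that did when a rat was left out. The other groups did not sort by vehicle: DCLF in water gave 9.50, 10.96 and 10.44, and APAP in corn oil gave 9.19, 9.28 and 12.29.

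Gadd45g, a stress-induced gene of growth arrest, read 11.11 and 11.01 in water and 10.21, 9.84 and 10.07 in corn oil (difference -1.02 ± 0.12 SE). Within each group the rats were close together. In the rats with a compound, the 3 APAP rats read 9.48 to 9.54, while the DCLF rats, in water, read 9.36, 11.20 and 9.29. Cxcl1, a chemokine that draws neutrophils, read 9.62 and 9.86 in water and 8.96, 8.71 and 8.85 in corn oil (difference -0.90 ± 0.11 SE). The 3 DCLF rats, also given water, read 8.74, 9.30 and 8.97, below both rats given water alone.

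Slc35c2, a Golgi membrane carrier, read 11.19 and 11.54 in water and 10.43, 10.36 and 10.15 in corn oil (difference -1.05 ± 0.13 SE). The 3 DCLF rats in water read 10.17, 10.19 and 10.09, which is the level of the corn oil group, and 2 of the 3 APAP rats in corn oil read 11.17 and 11.19, which is the level of the water group. For this gene the difference had the opposite sign in the rats with a compound, where vehicle and compounds cannot be told apart. APAP minus DCLF was 0.69 ± 0.25 (SE), with an adjusted p of 0.317 by limma. The limma test of the 2 differences against each other gave an adjusted p of 0.0928.

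Cd36, which carries fatty acids into cells, was the ranked gene closest to oil handling. It read 10.08 and 10.43 in water and 9.65, 9.65 and 9.72 in corn oil, a difference of -0.59 ± 0.11 (SE) with a 95% interval of -0.86 to -0.32. The corn oil rats agreed closely and lay below both water rats. APAP in corn oil minus DCLF in water was 0.90, in the opposite direction, with an adjusted p of 0.410 by limma, and the 3 rats given corn oil at 5 ml/kg read 10.66 to 11.42, above every rat of both vehicle groups here.

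Nr5a2 (LRH-1), a nuclear receptor of bile acid synthesis genes, read 11.04 and 11.25 in water and 10.62, 10.64 and 10.22 in corn oil. A second probe set of the gene differed by -0.46 and one more by 0.04, so its probe sets did not give a single answer. Znrf3, a ubiquitin ligase that removes Wnt receptors from the membrane, read 8.63 and 8.59 in water and 7.99, 8.03 and 7.90 in corn oil. Pde4b, which breaks down cyclic AMP, read 11.22 and 10.87 in water and 10.49, 10.39 and 10.05 in corn oil, and its other probe set differed by -0.63.

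Of the remaining lower genes, Mbnl3, an RNA-binding splicing factor, read 7.81 and 7.92 in water and 7.34, 7.08 and 7.23 in corn oil (difference -0.65 ± 0.10 SE). Ubp1, a transcription factor, differed by -0.59 on the ranked probe set and by -0.16 to 0.07 on its 4 others. Cacna1d, a calcium channel subunit, differed by -0.68 on 1 probe set and by -0.23 and 0.08 on others, and Mtmr1, a lipid phosphatase, by -0.78 on 1 and by -0.61, -0.53 and 0.08 on others. For these last 3 genes the choice of probe set decides the size of the difference.

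Among the ranked genes higher in corn oil, Maoa had the smallest p. It encodes monoamine oxidase A, which breaks down amines such as serotonin and noradrenaline. It read 11.36 and 11.26 in water and 12.02, 11.89 and 11.98 in corn oil, a difference of 0.65 ± 0.08 (SE) and a 95% interval of 0.46 to 0.84. The DCLF, APAP and corn oil 5 ml/kg means all lay nearer to corn oil than to water: the DCLF rats, given water, read 11.83, 11.73 and 11.83, and APAP minus DCLF was 0.02. The 2 rats given water alone were thus below the 3 that had water with DCLF.

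The list of UDP-glucuronosyltransferases and sulfotransferases, 16 genes, had a median difference of -0.051, with 10 below 0 and 0 called, and its median was above 0 without corn oil replicate 3 (0.030) or water replicate 2 (0.027). Its members of smallest p were higher in corn oil. Ugt2b1, a UDP-glucuronosyltransferase, read 10.41 and 11.10 in water and 11.73, 11.69 and 11.60 in corn oil (difference 0.92 ± 0.19 SE). In the rats with a compound it was called: APAP in corn oil minus DCLF in water was 1.67 ± 0.24 (SE) with an adjusted p of 0.031 by limma, where vehicle and compounds cannot be told apart. Sult2a6, a hydroxysteroid sulfotransferase, read 11.24 and 10.17 in water and 11.32, 11.14 and 11.97 in corn oil, with the groups overlapping.

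The related Sult2a2, whose fold stayed under 1.5, was tighter: 8.08 and 8.01 in water and 8.56, 8.49 and 8.43 in corn oil, a difference of 0.45 ± 0.08 (SE). Members of the Ugt2b and Sult2a families are alike in sequence, and probe sets may read more than one of them. Cyp17a1, a steroid hydroxylase and lyase, read 10.74 and 10.67 in water and 11.17, 10.93 and 12 in corn oil. APAP minus DCLF was -0.98 for Cyp17a1, opposite in sign.

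Ubd, a ubiquitin-like protein induced in inflammation, read 11.19 and 10.14 in water and 11.60, 11.69 and 11.47 in corn oil, the spread lying between the 2 water rats. Spink1, a trypsin inhibitor abundant in pancreas, read 7.69 and 7.44 in water and 9.78, 8.40 and 8.47 in corn oil, and its other probe sets differed by -0.25 and 0.54. The mean level of the pancreatic acinar marker list was 8.295 and 8.298 in water and 8.217 to 8.297 in corn oil.

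Lox, which cross-links collagen, rested on 1 rat. It read 10.78 and 8.53 in water and 10.46, 10.86 and 10.61 in corn oil, a difference of 0.98 ± 0.58 (SE), and without water replicate 2 the difference was -0.14. In the rats with a compound Lox was called in the opposite direction, APAP minus DCLF being -1.65 ± 0.24 (SE) with an adjusted p of 0.0312 by limma. The other 23 of the stellate cell and matrix markers measured stayed under a fold of 1.5, and the mean level of that list was 9.62 to 9.67 in water and 9.59 to 9.80 in corn oil.

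Of the last 5 higher genes, Ctdspl, a nuclear phosphatase, differed by 0.78 but by -0.08 to 0.22 on its 4 other probe sets, and Enc1, an actin-binding protein, by 0.70 but by -0.22 to 0.24 on its 3 others. Pip4p2, a phosphoinositide phosphatase, differed by 0.91 and 1.03 on its 2 probe sets. Clic2, an intracellular chloride channel protein, differed by 0.82. P2rx5, an ATP-gated channel, differed by 0.59 with overlapping groups and by 0.01 on its other probe set.

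**Figure D2:**
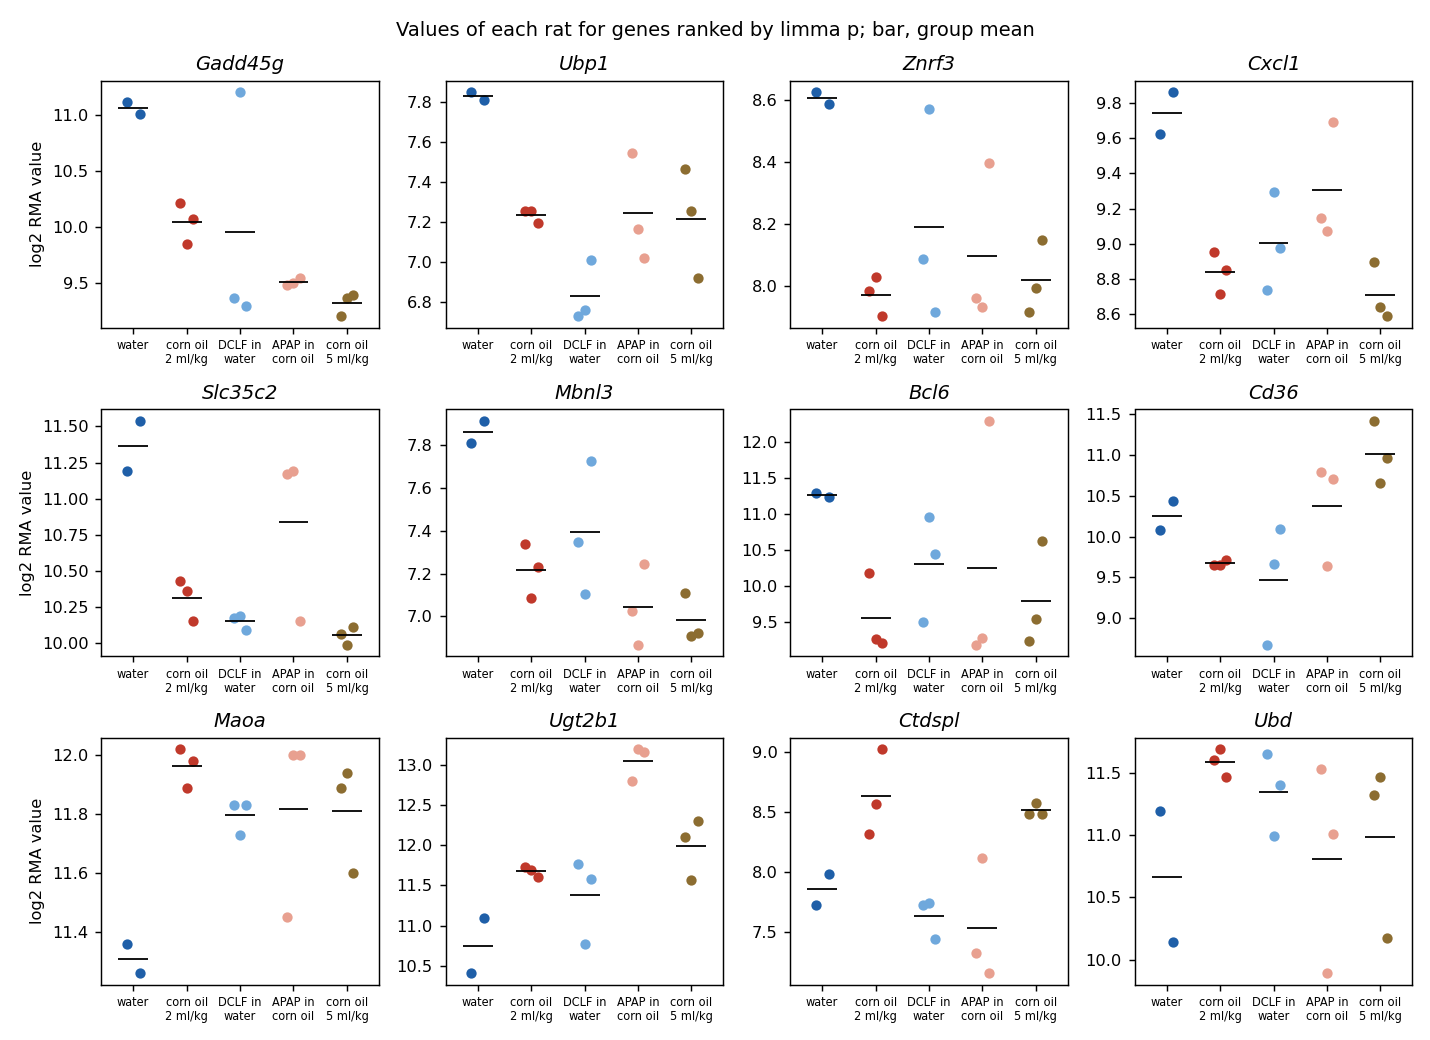
Log2 RMA value of each rat (y axes, which do not start at 0) for the 8 lower and 4 higher ranked genes of smallest p, in rats given water, corn oil at 2 ml/kg, DCLF in water, APAP in corn oil, and corn oil at 5 ml/kg in another study; bars are group means. Water and corn oil at 2 ml/kg, the groups that chose the genes, do not overlap, while DCLF in water reads like corn oil for Slc35c2 (10.09 to 10.19) and Maoa (11.73 to 11.83).

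Where the other rats fell on these 24 genes was counted as a description. The mean of the DCLF group, in water, was nearer to the corn oil mean than to the water mean for 18 of 24 genes. The share was 65.3% of all probe sets and 65.8% of those past a fold of 1.5. The mean of the APAP group, in corn oil, was nearer to corn oil for 16 of 24, against 56.1% and 67.5%. For corn oil at 5 ml/kg it was 21 of 24, against 58.7% and 74.4%. For the ethanol, ANIT (in corn oil) and MDA (in ethanol) groups it was 17, 19 and 15 of 24. Their shares were 55.1%, 60.2% and 58.7% of all probe sets, and 69.2%, 71.8% and 68.4% of those past that fold. Every group thus lay nearer to corn oil for most of these genes, which were chosen for the distance between corn oil and water, and nothing is read from these counts about any vehicle.

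The metabolic genes on which an oil load would be looked for were then read one role at a time, and 24 of them are plotted with their intervals. Of these 24, 22 had a 95% interval within 2-fold either way and 16 within 1.5-fold, and none was called. The lists behind them hold 855 genes on the array in all 44 lists together, of which 0 were called, against 0% of all probe sets. As a background, 268 of 14217 genes with 1 probe set each (1.89%) had an unadjusted p under 0.05 and were higher, and 588 (4.14%) were lower. The median difference over all genes was -0.028. The median of a list often depended on a single rat: for 30 of the 44 lists it changed sign when 1 of the 5 rats was left out.

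No gene of fat burning under PPAR alpha was called, and most were measured closely enough to bound the difference. Cpt1a, the gate for fatty acids into mitochondria, read 13.56 and 13.57 in water and 13.53, 13.32 and 13.94 in corn oil (difference 0.03, 95% interval -0.38 to 0.44). Cyp4a1, a fatty acid omega-hydroxylase and a standard PPAR alpha target in rats, read 13.60 and 13.74 in water and 13.50, 13.44 and 13.82 in corn oil (difference -0.08, interval -0.39 to 0.22). The 2 groups overlapped for both genes, and both intervals lay inside a factor of 1.5 in either direction.

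Pdk4, which spares glucose when fat is burned, differed by 0.05 with an interval of -0.54 to 0.65. Angptl4, a secreted inhibitor of lipoprotein lipase, differed by 0.11, with an interval of -0.26 to 0.49. Fgf21, a fasting hormone made by the liver, could not be pinned down: it read 9.78 and 10.23 in water and 9.92, 9.35 and 11.06 in corn oil, with an interval of -0.988 to 1.203. Corn oil replicate 3 had the highest value of the 5 rats for Cpt1a, Pdk4, Angptl4, Fgf21 and Plin2. Ppara itself differed by -0.26 (interval -0.50 to -0.01).

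Taken as lists, 26 PPAR alpha and peroxisomal genes had a median difference of -0.008 with 13 above and 13 below 0, and 2 had an unadjusted p under 0.05: Vnn1, a pantetheinase, at 0.30 and Ppara at -0.26. The balance rested on single rats: without corn oil replicate 3 the median was -0.150 with 18 of 26 below 0 and 3 lower at an unadjusted p under 0.05, without water replicate 1 it was -0.144, and without corn oil replicate 2 or water replicate 2 it was 0.058 with 16 above 0. The 19 genes of mitochondrial fatty acid oxidation had a median of -0.097, with 16 below 0, and all 19 had intervals within 2-fold. Etfa, an electron carrier of this pathway, had the smallest p, at -0.19, and Etfdh, its partner, the lowest value, at -0.23. After median centring of the arrays the list's median was -0.07 and 15 of 19 were below 0, when the median of all genes was -0.002. All differences in this list were small, from -0.232 to 0.101.

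**Figure D3:**
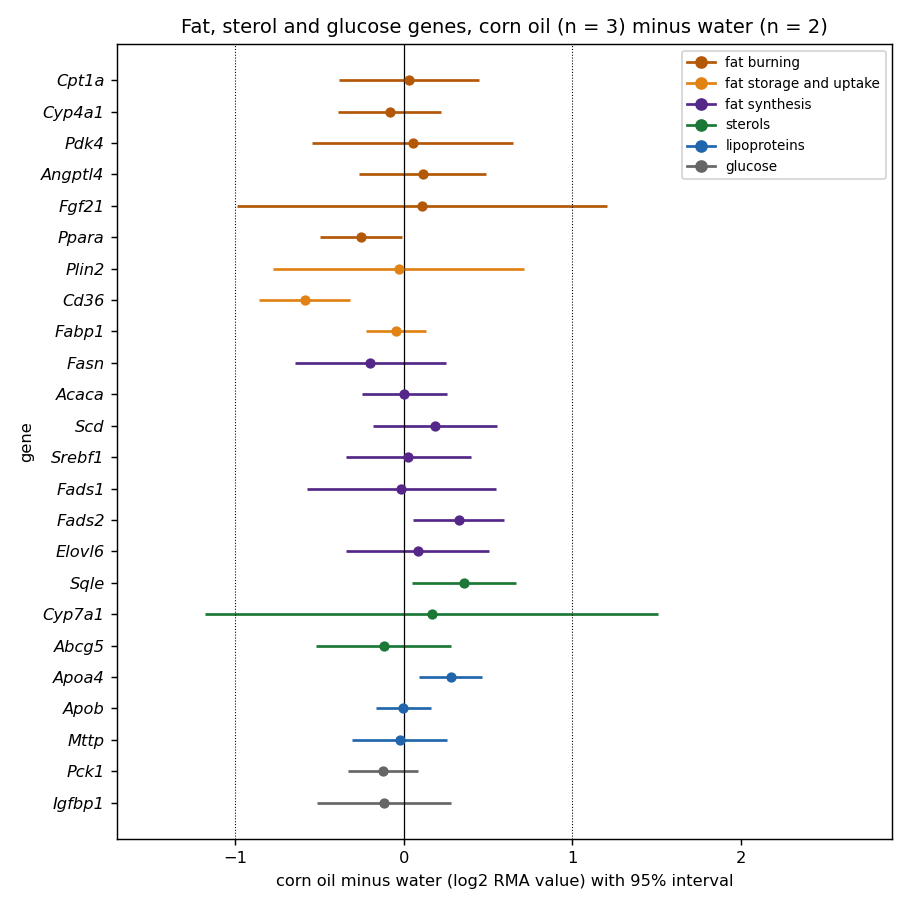
Difference between corn oil and water (x axis, log2) with its 95% interval for 24 genes of fat burning, fat storage, fat synthesis, sterols, lipoproteins and glucose, coloured by role; dotted lines mark 2-fold. The intervals of 22 genes stay inside 2-fold, and those of Fgf21 and Cyp7a1 do not.

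Of 30 genes of fat uptake and storage, Cd36, above, had the largest difference and 29 had intervals within 2-fold. Plin2, which coats lipid droplets, read 13.34 and 13.38 in water and 13.36, 12.71 and 13.91 in corn oil (difference -0.03, interval -0.77 to 0.71). The corn oil rats spread over more than a factor of 2 around the water rats. Fabp1, the liver fatty acid binding protein and one of the most abundant messages, differed by -0.04 (interval -0.22 to 0.13). Slc27a5, a fatty acid and bile acid CoA ligase, differed by 0.33 with groups of 13.04 and 13.02 against 13.14, 13.53 and 13.42.

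Fat synthesis and desaturation genes included 3 of 21 with an unadjusted p under 0.05, all higher in corn oil, against 1.89% of all genes. Elovl5, which elongates polyunsaturated fatty acids, read 13.38 and 13.42 in water and 13.77, 13.55 and 13.90 in corn oil, a difference of 0.34 ± 0.11 (SE). Fads2, the delta-6 desaturase that acts on linoleic acid, read 11.66 and 11.44 in water and 11.97, 11.71 and 11.96 in corn oil, a difference of 0.33 ± 0.11 (SE). Acss2, which makes acetyl-CoA from acetate, differed by 0.31 ± 0.13 (SE). For each of these 3 the corn oil rats lay above the water rats. The count was 0 of 21 without corn oil replicate 1 or by the methods' t-test. It was 1 with the spread from the 11 arrays of the study or from all 23 arrays. The list's median, 0.027, ran from -0.064 to 0.096 when each rat was left out in turn.

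The enzymes that make the fatty acid chain did not stand with them. Fasn, fatty acid synthase, read 10.60 and 11.11 in water and 10.91, 10.62 and 10.44 in corn oil (difference -0.20, interval -0.65 to 0.25). Acaca, acetyl-CoA carboxylase, differed by 0.002, Srebf1 by 0.03, Scd, stearoyl-CoA desaturase, by 0.19 and Fads1, the delta-5 desaturase, by -0.01, all with intervals that include 0. In the rats with a compound Elovl5 differed by -0.44 and Fads2 by -0.43 between APAP in corn oil and DCLF in water, opposite in sign to the vehicles alone, with adjusted p of 0.338 and 0.273 by limma. Acss2 differed by 0.18 there, the same sign. Of the 21 genes of this list, 11 had the same sign in both contrasts.

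Cholesterol synthesis genes had the highest median of the lipid lists, 0.099 over 17 genes with 11 above 0, yet they did not go one way. Sqle, squalene epoxidase, read 9.91 and 9.81 in water and 10.35, 10.33 and 9.97 in corn oil (difference 0.36 ± 0.13 SE). Sc5d, which acts late in the pathway, read 12.24 and 12.26 in water and 12.01, 11.91 and 11.76 in corn oil (difference -0.36 ± 0.09 SE). Idi1, isopentenyl diphosphate isomerase, was higher in 2 corn oil rats (10.40 and 10.34) while the other corn oil rat, at 9.71, was level with water (9.72 and 9.81). For Sqle, Idi1 and Insig1 the values of APAP minus DCLF were -0.64, -0.49 and -0.59, again opposite in sign. For Sc5d it was -0.18, the same sign. Of the 17 cholesterol synthesis genes, 6 had the same sign in both contrasts, against 43.8% of all probe sets.

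Of the sterol-sensing genes, Insig2 differed by -0.24, Stard4, a sterol carrier, by 0.23 and Insig1 by 0.22. Nr1h3 (LXR alpha), the oxysterol receptor, read 11.80 and 11.97 in water and 11.58, 11.69 and 11.56 in corn oil. Abca1, its target and a cholesterol exporter, read 11.81 and 11.76 in water and 11.15, 11.73 and 11.15 in corn oil, a difference of -0.44 ± 0.18 (SE). For Abca1, corn oil replicate 2 stood with the water rats.

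Bile acid genes were led by the poorly measured Cyp7a1, which opens the classic pathway and sets its pace. It read 10.94 and 10.18 in water and 11.14, 11.49 and 9.54 in corn oil, and its interval ran from -1.18 to 1.51, so a change of 2-fold in either direction was not detectable with these rats. Amacr, a racemase of bile acid side chains, differed by -0.28 ± 0.08 (SE) with groups that did not overlap. Abcb1a, the drug exporter MDR1a, read 9.17 and 9.16 in water and 8.27, 7.98 and 9.06 in corn oil, a difference of -0.73 ± 0.29 (SE). APAP in corn oil minus DCLF in water was 1.26, opposite in sign, with an adjusted p of 0.0825 by limma. The rats given corn oil at 5 ml/kg in another study read 9.69 to 10.15, above every rat of both vehicle groups here.

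Among 19 lipoprotein genes, Apoa4, an apolipoprotein of chylomicrons that the rat liver also makes, had an unadjusted p under 0.05. It read 13.68 and 13.80 in water and 14.00, 13.98 and 14.08 in corn oil, a difference of 0.28 ± 0.08 (SE), interval 0.09 to 0.47. The corn oil rats were all above the water rats, by less than 1.5-fold at either end of the interval. Apoa4 differed by 0.04 between APAP in corn oil and DCLF in water. Apob, the backbone of very low density lipoprotein, differed by -0.003 (interval -0.17 to 0.16), and Mttp, which loads it with lipid, by -0.02 (interval -0.31 to 0.26).

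**Figure D4:**
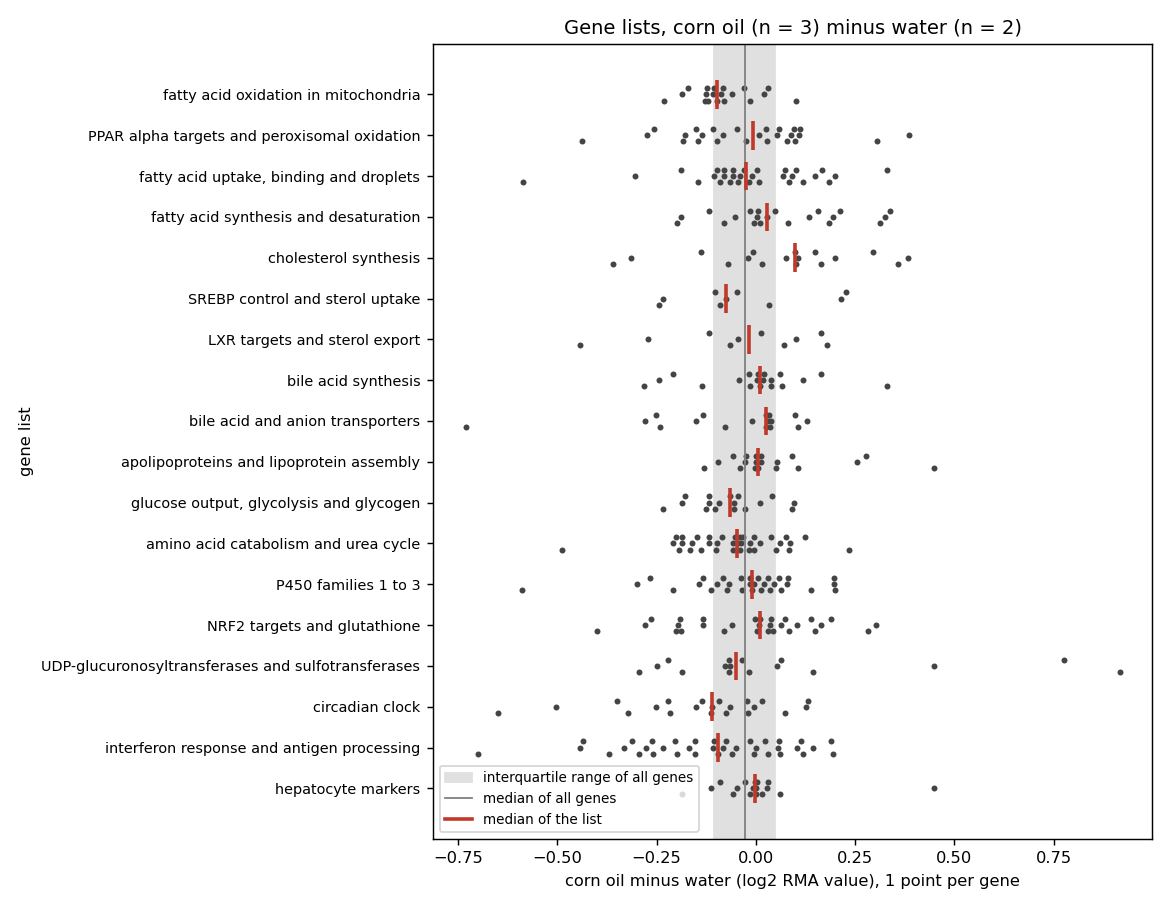
Difference between corn oil and water (x axis, log2) for each measured gene (points) of 18 of the 44 gene lists, with the list's median (red) against the median (grey line) and interquartile range (grey band) of all genes. No listed gene met the call; the medians shown lie between -0.111 (circadian clock) and 0.0987 (cholesterol synthesis).

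No glucose or amino acid gene was called. Pck1, the key enzyme of new glucose formation, differed by -0.12 (interval -0.33 to 0.08), and Igfbp1, an insulin-repressed gene, by -0.12 (interval -0.52 to 0.28). The 17 glucose genes had a median of -0.064 and none had an unadjusted p under 0.05. Of 37 genes of amino acid breakdown and the urea cycle, Oat, ornithine aminotransferase, read 12.85 and 13.18 in water and 12.79, 12.32 and 12.47 in corn oil, a difference of -0.49 ± 0.16 (SE). All 37 had intervals within 2-fold.

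Drug metabolism genes matter here because the vehicle is the baseline for compound effects. Of 31 P450 genes of families 1 to 3, 29 had intervals within 2-fold and 2 had an unadjusted p under 0.05, both lower. That direction did not hold throughout: median centring gave 2 higher and 2 lower, and leaving out corn oil replicate 3 gave 5 higher and 1 lower. Cyp3a9 read 12.12 and 12.67 in water and 11.64, 11.84 and 11.94 in corn oil, a difference of -0.59 ± 0.17 (SE). Cyp1a1, the marker of the aryl hydrocarbon receptor, read 9.67 and 9.44 in water and 9.26, 9.33 and 9.27 in corn oil, a difference of -0.27 ± 0.09 (SE). All 29 NRF2 and glutathione genes had intervals within 2-fold, with Srxn1, sulfiredoxin, highest at 0.30.

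Of the 44 lists, the circadian clock list had the largest share of genes with an unadjusted p under 0.05 and lower values in corn oil. Of 21 clock genes, 5 had an unadjusted p under 0.05, all lower in corn oil, against 4.14% of all genes, and 17 of 21 were below 0 with a median of -0.111. Nr1d1, the repressor REV-ERB alpha, read 9.07 and 9.46 in water and 8.78, 8.75 and 8.75 in corn oil, a difference of -0.50 ± 0.12 (SE). Bhlhe40, another repressor of the clock, read 9.29 and 9.41 in water and 8.87, 8.23 and 8.998 in corn oil, a difference of -0.65 ± 0.22 (SE). Tef and Hlf, which encode PAR bZIP output factors, differed by -0.25 and -0.32, and Rora by -0.35.

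Dbp, Per1 and Per3, among the strongest cyclers in liver, did not stand with them: Dbp differed by 0.07, Per1 by -0.02 and Per3 by -0.07. Bmal1, at -0.11, lay at about the median of the list. Between the rats with a compound Nr1d1 differed by 0.59 and Bhlhe40 by -0.78. The count of 5 moved with the setting: it was 2 without corn oil replicate 2, 3 without corn oil replicate 3 or water replicate 1, 1 without water replicate 2, 2 after quantile normalization, 2 with the mean of each gene's probe sets and 1 when the spread was taken from all 11 rats of the study.

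Markers of other cells gave no list with a called gene. The macrophage list mean was 10.40 to 10.67 in water and 10.19 to 10.87 in corn oil. Its median difference turned on single rats: it was -0.028 over 18 genes with all rats, 0.176 with 17 of 18 above 0 without corn oil replicate 1, and -0.190 without corn oil replicate 3. The lymphocyte list mean was 8.61 to 8.78 in water and 8.57 to 8.76 in corn oil. In whole liver, fewer cells of a type and less RNA per cell cannot be told apart. The erythroid list mean was 9.28 to 9.39 in water and 9.12 to 9.39 in corn oil. Its 12 genes had a median difference of -0.019, with 5 above 0, and ran from Hbb, a globin, at -0.48 to Ahsp, which stabilises alpha globin, at 0.30. Of 8 neutrophil markers, 2 had an unadjusted p under 0.05, S100a9 at 0.38 and Mmp9 at 0.31, both higher in corn oil, while S100a8 differed by -0.01; the count was 0 without corn oil replicate 3 or water replicate 2.

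Whether the same vehicles differed when a compound was added was read from rats that share no sample with the comparison above. APAP in corn oil minus DCLF in water gave 138 called probe sets (0.445%), 101 (0.325%) higher and 37 (0.119%) lower, where the compounds and the vehicles cannot be told apart. The sign of the difference was the same in both contrasts for 43.8% of all probe sets, and for 5 of the 12 ranked higher and 5 of the 12 ranked lower genes. Across probe sets the 2 differences had a Pearson's r of -0.07, a description in which probe sets are not replicates. These counts are near the share over all probe sets, so they show nothing particular to the ranked genes. The test of the 2 differences against each other called 22 probe sets (0.0709%), all lower in corn oil minus water than in APAP minus DCLF.

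**Figure D5:**
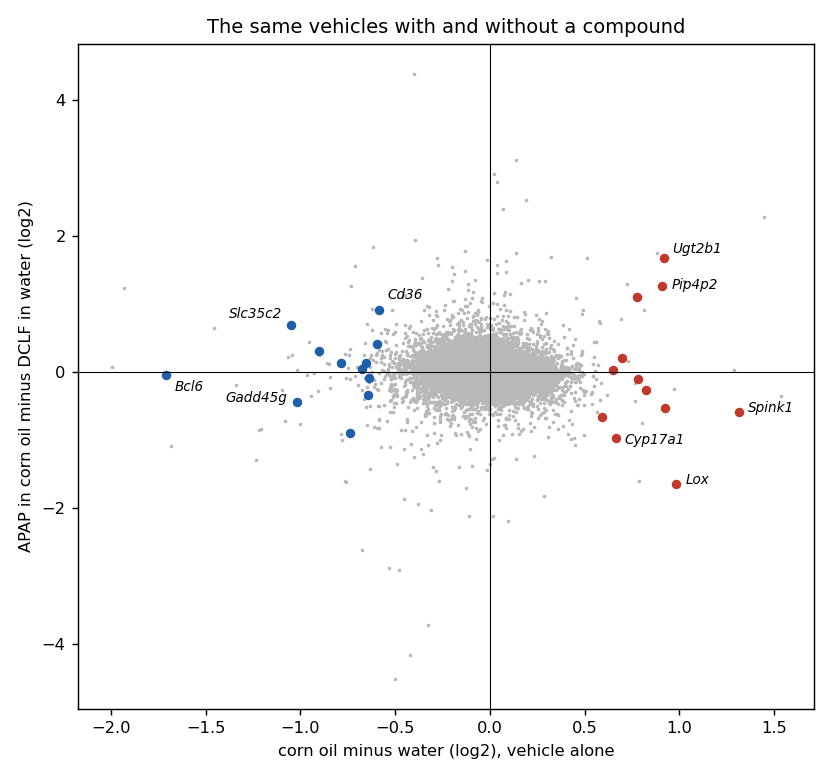
Corn oil minus water (x axis, log2, 5 rats) against APAP in corn oil minus DCLF in water (y axis, log2, 6 other rats) for 31042 probe sets, with the ranked higher (red) and lower (blue) genes. The points form no common diagonal (r = -0.07), and Ugt2b1 lies high on both axes (0.92 and 1.67) while Lox lies on opposite sides (0.98 and -1.65).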

How the data were processed

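Liver RNA of each rat was labelled with biotin and hybridised to an Affymetrix rat genome array. Per the study's methods, the authors normalized the arrays by RMA in Array Studio and deposited log2 values. RMA brings the arrays towards a common distribution, so a shift of the liver shared by all genes would be largely removed. The medians of the 23 arrays still ran from 8.95 to 9.024, so small shifts between arrays remained in the values. The file held 31099 probe sets; 57 controls were left out. A platform annotation named 1 gene for 20826 probe sets, several for 436 and none for 9780; 20758 of the first matched a current gene. Lists use the probe set of highest mean for each of 14217 genes.

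Differences were fitted with limma 3.58.1 (R 4.3.3), which was tested on simulated data, on the 5 arrays, with Benjamini-Hochberg adjustment over 31042 probe sets. A call needed an adjusted p under 0.05 and a fold over 1.5. Named were, for each direction, the 12 genes of smallest p past that fold among probe sets that name 1 gene. Named too were up to 4 genes of smallest p from each metabolic, clock and vitamin A list. A further 24 genes were chosen for their role, outside the rule. Further clock genes, single cell markers and the genes of the closing section were chosen after their values were seen. Members and lists were chosen with earlier results of these data known. The number of arrays limits precision, and no scan batch was used. Alternatives were the methods' t-test, centring, quantile normalization, a filter on the dimmest 25% of probe sets, shared spread, robust variance, no fold threshold, gene means and leaving out each rat. Sequencing data were not analysed here.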

Additional observations from a re-analysis of the deposited data

Results flagged for a closer look

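Of the drug metabolism genes named by smallest p in corn oil against water, 3 differed between the 2 contrasts. The contrasts were corn oil minus water and APAP in corn oil minus DCLF in water (limma's interaction test, adjusted p = 0.00133 for each). Unnamed members were not looked at here. In APAP against DCLF, 15 of 29 NRF2 and glutathione genes and 5 of 21 glutathione S-transferases were called higher. Over all genes 70 of 14217 were called higher there. The 2 lists may share genes, so their counts are not separate. Gsta3, a glutathione S-transferase, read 8.37 and 8.16 in water and 8.06, 7.45 and 8.07 in corn oil. It read 12.32, 12.01 and 12.30 with APAP and 8.642, 7.435 and 7.43 with DCLF, and the 2 differences were -4.77 apart on the log2 scale. Akr7a3, an aldehyde reductase, was -2.34 apart, with 11.70 and 11.52 in water, 11.80, 11.79 and 11.82 in corn oil and 14.30 to 14.47 with APAP. Nqo1, a quinone reductase, was -1.74 apart, with 11.99 and 12.01 in water, 11.89, 11.83 and 11.66 in corn oil and 13.27 to 13.52 with APAP. With DCLF, Akr7a3 read 11.47 to 12.06 and Nqo1 read 11.64 to 12.01. For each of these genes the 3 APAP rats stood above every water, corn oil and DCLF rat of the same study. For Gsta3 the rats given corn oil at 5 ml/kg in another study read 10.03, 8.67 and 10.29, above the vehicle rats here and below the APAP rats.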

How the results depend on the processing

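No probe set was called in corn oil against water under limma with any other scaling, filter, spread or fold rule tried. The methods' t-test at an unadjusted p under 0.01 called 2 higher and 8 lower, 1 of the lower being a listed gene, and 0 after Benjamini-Hochberg adjustment. Leaving out 1 rat gave 0 to 1 called lower, the 1 being Bcl6 (also the 1 listed gene). For APAP against DCLF, leaving out 1 rat, a setting chosen after seeing the data like the counts over lists, gave 45 to 73 called higher and 13 to 41 lower; without APAP replicate 1 these were 49 and 18, without APAP replicate 2 49 and 13, without DCLF replicate 1 45 and 15, without DCLF replicate 3 47 higher and without DCLF replicate 2 14 lower. For the test of the 2 differences, leaving out 1 rat gave 0 to 6 called higher (6 without water replicate 1 or APAP replicate 3) and 8 to 25 lower (8 without water replicate 2, 9 without APAP replicate 1, 12 without corn oil replicate 2 or DCLF replicate 3, 14 without DCLF replicate 1). Median centring gave 1 called higher there, and the filter on dim probe sets and the robust variance 2 each. Small differences changed sign, and for none was the cause tested. The mean of all probe sets gave -0.0214 for Fdft1, -0.0185 for Nr1h2 and -0.161 for Acaca. Median centring gave 0.0122 for Fads1, 0.0238 for Apob and 0.002 for Mttp, and quantile normalization 0.034 for Fads1, 0.00871 for Apob, 0.0248 for Mttp and 0.0248 for Plin2. When each rat was left out in turn, the difference ran from -0.14 to 2.11 for Lox, -0.0486 to 0.324 for Slc16a6, -0.0896 to 0.1998 for Acat1, -0.0496 to 0.213 for Slc16a1, -0.169 to 0.0414 for Lpcat3, -0.0254 to 0.262 for Cyp46a1, -0.14 to 0.17 for Cpt1a, -0.21 to 0.22 for Pdk4, -0.0447 to 0.203 for Angptl4, -0.37 to 0.49 for Fgf21, -0.32 to 0.28 for Plin2, -0.454 to 0.0564 for Fasn, -0.0667 to 0.0795 for Acaca, -0.10 to 0.17 for Srebf1, -0.17 to 0.24 for Fads1, -0.22 to 0.39 for Elovl6, -0.22 to 0.76 for Cyp7a1, -0.266 to 0.0342 for Abcg5, -0.0115 to 0.00585 for Apob, -0.127 to 0.0511 for Mttp and -0.31 to 0.0722 for Igfbp1. No paired analysis was possible because the rats of the 2 groups are different animals and the replicate numbers only follow sample order.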

Other observations

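Interferon and antigen processing genes, 37 of them, had a median difference of -0.096 between corn oil and water, with 25 below 0 and 0 called. Ifi44l, an interferon-induced gene, differed by -0.70, RT1-Db1, a class II antigen-presenting chain, by -0.37 and Ifit2 by -0.33. The list turned on 1 rat: without corn oil replicate 3, 15 of 37 had an unadjusted p under 0.05 and were lower, against 2 of 37 with all rats and 1 of 37 with either 1 of the water rats left out, and the median was -0.224. The limma counts of called genes were 0 in both settings.

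Genes that differ between male and female rat liver were read beside Bcl6. The 14 male-predominant genes had a median difference of -0.106, with 10 below 0, and Bcl6 alone had an unadjusted p under 0.05. Both lists turned on 1 rat. Without corn oil replicate 3 the male-predominant median was 0.017, with 8 of 14 above 0 and 2 of them higher at an unadjusted p under 0.05, and without corn oil replicate 2 it was -0.207, with 13 below 0 and 4 lower at that threshold. The 12 female-predominant genes had a median of 0.036, with Sult2a2 at 0.45, and without corn oil replicate 3 a median of -0.044, with 8 below 0. Cux2, a female-predominant repressor, differed by 0.38.

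Mt2A, a metallothionein, differed by 0.48, with groups that did not overlap, as for 24.5% of all probe sets. A probe set that names Mt1f, Ttr and Mt1 together differed by 0.69, and by 0.77 in APAP minus DCLF. The probe set of smallest p of all, which names no gene, differed by -0.945. Both had an adjusted p of 0.508 by limma and fell outside the ranking, which took probe sets naming 1 gene. Hspa1a, the inducible heat shock protein, differed by 0.35. The 17 genes of the heat shock list went mostly the other way. Their median was -0.082, with 13 below 0 and 4 above, and they ran from -0.191 to 0.348. Of 42 cell cycle genes, 4 had an unadjusted p under 0.05 by limma, against 6.02% of all genes. Top2a at 0.30, Ccnb1 at 0.19 and Ube2c at 0.27 were higher in corn oil, and Ccnd2, at -0.34, was lower. That count was 1 by the methods' t-test and 0 with the spread from all 23 arrays. None of these genes was called. All 41 cytoplasmic ribosomal protein genes had intervals within 2-fold, with differences from -0.135 to 0.134.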
